A study of Mus musculus with 8 samples.

Results

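Elastic fibre and microfibril genes were compared between NIH3T3 clones that carry an expression plasmid for FLAG-tagged 14-3-3ε and NIH3T3 clones with the control vector. The 10 genes were chosen by symbol: Eln, Fbn1, Fbn2, Mfap2, Mfap4, Mfap5, Fbln1, Fbln2, Fbln5 and Efemp2. All 10 were found among the 24062 genes of the RNA-seq table. NIH3T3 is an immortalised line of mouse embryonic fibroblasts. The overexpressing clones were 14-3-3ε clones 10 and 12, in which 14-3-3ε was expressed from p3xFLAG-CMV-10, whose CMV promoter is active in most cell types, after selection in 800 µg/mL of the drug G418 and picking of single colonies. They were set against control clones 2 and 3, for which the labels give no G418 concentration. All clones were grown with 10% serum, and the clones of a group are separate clones of 1 line. RNA-seq was run on every clone, as was reduced representation bisulfite sequencing (RRBS), a method that reads methylation of cytosines in CpG-rich fragments. This made 8 samples, 2 in each of 4 groups.

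Elastic fibres give skin, lung and arteries their recoil. Cells first lay down microfibrils, thin beaded filaments built from fibrillins. Tropoelastin, the soluble product of Eln, is then guided onto them by fibulins and other glycoproteins and crosslinked by lysyl oxidases into an insoluble core. Microfibrils also hold latent TGF-beta complexes in the matrix. Fibroblasts and smooth muscle cells are their chief producers.

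Both tables used here hold the authors' comparison of the groups and no value per clone. The spread between clones enters the RNA results through the standard error alone, and depth per library is unknown from these tables. Neither table states the direction of its comparison. A positive value was read as a higher level in 14-3-3ε clones, as these tools usually have it, and every direction below rests on that reading. The mouse gene for 14-3-3ε, Ywhae, could not check it: its log2 fold change was -0.03 ± 0.18 (standard error, adjusted p = 0.942) in the authors' deposited table. Neither labels nor headers say how transgene transcripts were counted. The labelled cell type was checked on its markers. All 8 fibroblast markers had mean normalized counts between 4843 and 424650 in the authors' deposited table. Of the chondrocyte and bone markers, Runx2 had 3193 and Sox9 1440 in the authors' deposited table. The others of that list, Acan, Bglap and Col2a1, had 0.710, 5.05 and 6.47 in the authors' deposited table. The endothelial markers lay between 0 and 8.17, and the epithelial markers Epcam, Cdh1, Krt18 and Krt5 between 0 and 0.732, in the same unit of the authors' deposited table, while Krt8 had 51.1. Of the blood markers Cd68 had 109.6 and Ptprc 10.2 in that unit of the authors' deposited table, and the haemoglobin genes were listed at 0. The smooth muscle genes Myh11, Cnn1 and Myocd had 12.6, 5.18 and 1.28 in that unit, while Acta2 and Tagln, which fibroblasts also express, had 15851 and 1914, and Smtn 2543, in the authors' deposited table.

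In RNA, 4 of the 10 genes rose in 14-3-3ε clones and none fell at an adjusted p under 0.05. These were the microfibril genes Mfap5, Mfap4 and Fbn1 and the elastin-binding fibulin gene Fbln5, with rises of about 8.7, 4.8, 3.1 and 2.4 times. The fibulin genes Efemp2 and Fbln2 were tested and not called. The other 4 genes, Eln, Fbn2, Mfap2 and Fbln1, had low mean counts and no adjusted p, since the authors' table gives one only down to a mean normalized count of 33.1. Over all 11482 genes with an adjusted p, 6.15% were called higher and 4.74% lower. The share called higher was 4.85% among genes with a mean normalized count under 100, 6.21% from there to 1000, 6.22% up to 10000 and 7.75% above it. The median log2 fold change was 0.35 over the 10 genes of the authors' deposited table and 0.00 over all genes with an adjusted p. In bulk RNA such as this, more cells of a kind and more RNA per cell cannot be told apart.

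**Figure D1:**
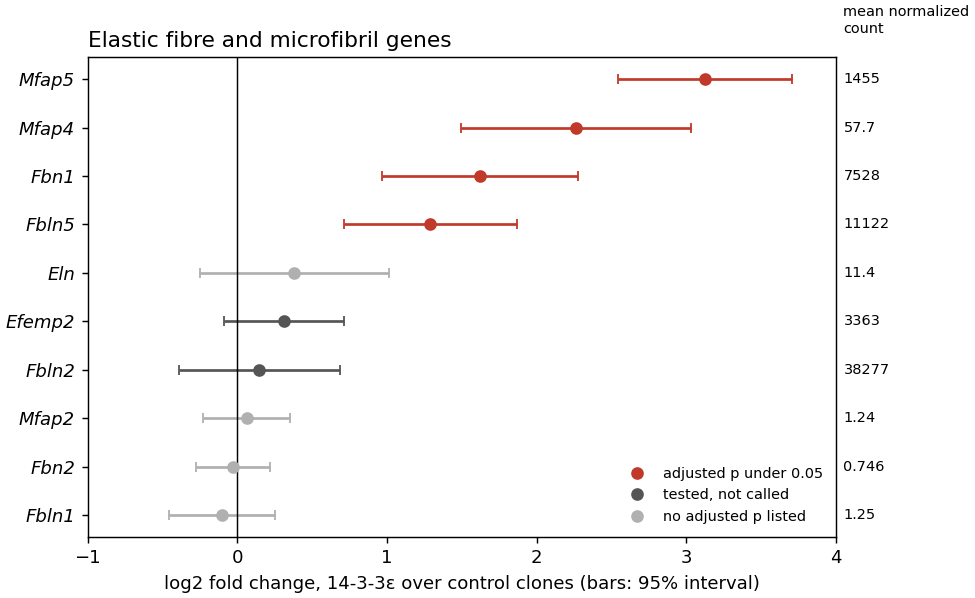
Log2 fold change of each gene, 14-3-3ε over control clones, with bars for the 95% interval computed from the deposited standard error; the mean normalized count over the libraries stands at the right. Mfap5, Mfap4, Fbn1 and Fbln5 lie to the right of 0 with intervals that leave it out, while the intervals of the other 6 genes include 0.

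The fibrillins Fbn1 and Fbn2 form the backbone of the microfibril. Fbn1, on chromosome 2 from 125300594 to 125506485 (build mm10), had a mean normalized count of 7528 over the libraries and a log2 fold change of 1.62 ± 0.33 (standard error, as in all values after ± here) in the authors' deposited table. That change had an adjusted p = 6.33e-05 in the authors' deposited table, and the 95% interval of the fold was 1.96 to 4.85. Its product is the main fibrillin of mature tissue and the protein altered in human Marfan syndrome. Fbn2, a fibrillin made mainly before birth, lies on chromosome 18 from 58008623 to 58210572. It was listed at a mean normalized count of only 0.746, with a log2 fold change of -0.03 ± 0.13, in the authors' deposited table. Fold changes at such levels carry little information: of the 3235 genes whose mean count was over 0 but not over 2, none had a log2 fold change beyond 0.22 in size in the authors' deposited table. A change of Fbn2 could not have been measured here.

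The microfibril-associated glycoproteins Mfap2 and Mfap5 are small related proteins that bind fibrillins. Mfap5, on chromosome 6 from 122513584 to 122529290, had the largest change of the 10 genes. Its mean normalized count was 1455 and its log2 fold change 3.12 ± 0.30 (adjusted p = 4.50e-23) in the authors' deposited table. The 95% interval of the fold was 5.84 to 13.0, and the change ranked 8 of 11482 genes by size, whichever its sign. Mfap2, its relative on chromosome 4 from 141010424 to 141015976, was listed at a mean normalized count of 1.24 with a log2 fold change of 0.06 in the authors' deposited table. Mfap4 belongs to another family, the fibrinogen-related proteins, and its product binds tropoelastin and fibrillin. Lying on chromosome 11 from 61485431 to 61488708, it had a mean normalized count of 57.7 and a log2 fold change at 2.27 ± 0.39 (adjusted p = 7.41e-07) in the authors' deposited table. The fold interval was 2.82 to 8.19 and the rank by size 32. Mfap4 therefore rose at a low mean count, near the lowest at which an adjusted p was given.

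The fibulins link microfibrils, tropoelastin and crosslinking enzymes. Fbln5, whose product binds tropoelastin, Loxl1 and integrins, lies on chromosome 12 from 101746565 to 101819119. It had a mean normalized count of 11122 and a log2 fold change at 1.29 ± 0.30 (adjusted p = 0.000505) in the authors' deposited table. The fold interval was 1.64 to 3.66 and the rank by size 225. Efemp2, the gene of the fibulin that helps bring Lox to tropoelastin, lies on chromosome 19 from 5473946 to 5482520. It reached a mean normalized count of 3363 and a log2 fold change at 0.31 ± 0.20 (adjusted p = 0.359) in the authors' deposited table. Its 95% interval ran from -0.09 to 0.71 on the log2 scale. Fbln2, a larger fibulin that binds many matrix proteins, lies on chromosome 6 from 91212460 to 91272540. It reached a mean normalized count of 38277 and a log2 fold change at 0.15 ± 0.27 (adjusted p = 0.803) in the authors' deposited table. The interval, -0.39 to 0.68 on the log2 scale, leaves room for a change of up to about 1.6 times upward. Fbln1, the related fibulin on chromosome 15 from 85205949 to 85286294, was listed at a mean normalized count of 1.25 with a log2 fold change of -0.10 in the authors' deposited table.

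Elastin itself had a low count. Eln, on chromosome 5 from 134702595 to 134747368, had a mean normalized count of 11.4 and a log2 fold change of 0.38 ± 0.32 (unadjusted p = 0.235) in the authors' deposited table. The 95% interval ran from -0.25 to 1.01 on the log2 scale, so no difference was detected. Its upper end is a rise of 2.02 times. Moderation of the deposited fold at so low a count may narrow this interval, so a larger rise is not excluded. Genes of the microfibril and of its assembly were thus called while the gene of the core protein was not tested.

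The group levels behind these folds can be worked out only approximately. With 2 clones in each group, the deposited mean and fold imply mean normalized counts of about 2610 in 14-3-3ε clones against 299 in control clones for Mfap5, and of 95.5 against 19.9 for Mfap4. For Fbn1 they imply 11367 in 14-3-3ε clones against 3690.0 in control clones, and for Fbln5 15788 against 6456. Because the deposited folds are moderated, the true gap may be wider. The level implied for Mfap4 in control clones lies below 33.1, so this gene reached the test through its level in 14-3-3ε clones.

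Related genes were also set side by side in 4 pairs. The log2 fold change of Fbln5 exceeded that of Efemp2 by 0.98 (95% interval 0.28 to 1.68) in values from the authors' deposited table, with errors taken as independent. In no other pair did both genes have an adjusted p. The difference was 1.65 (0.95 to 2.35) for Fbn1 less Fbn2, 3.06 (2.41 to 3.71) for Mfap5 less Mfap2 and -0.25 (-0.89 to 0.39) for Fbln1 less Fbln2 in values from the authors' deposited table. In each of these 3 pairs a gene stood near 0 reads, where moderation holds the fold near 0, so the intervals compare a measured change with an unmeasured one.

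**Figure D2:**
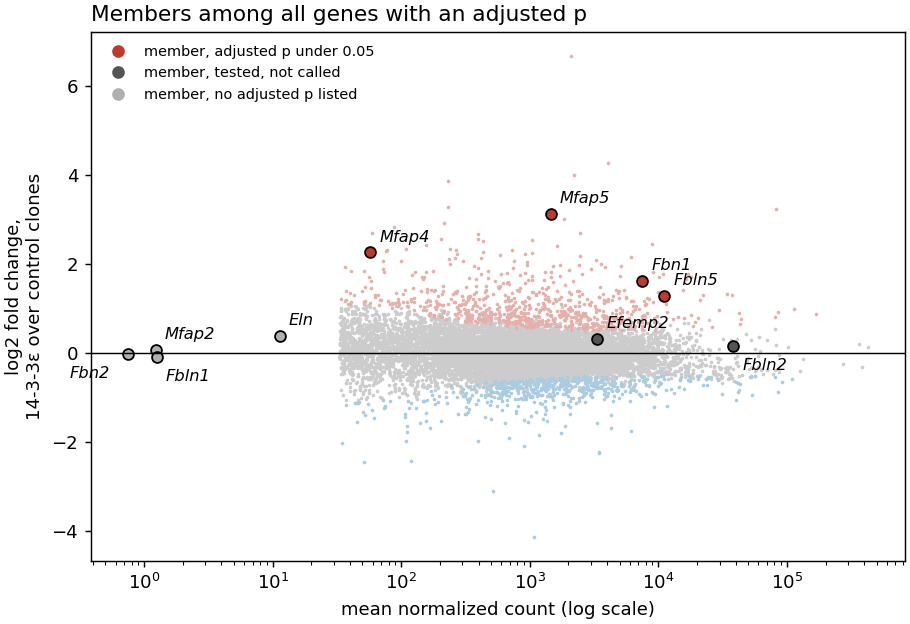
Log2 fold change, 14-3-3ε over control clones, against the mean normalized count on a log scale, for 11482 genes with an adjusted p (small points, called higher in light red and lower in light blue) and for the 10 members (large points). Mfap5 stands near the upper edge of the cloud, while Eln, Mfap2, Fbn2 and Fbln1 lie left of the level at which genes had an adjusted p.

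Other genes tied to elastic fibres by function, or by name alone, were examined in 8 lists of 78 gene symbols. Of these, 76 were listed and 58 had an adjusted p. In these lists 17 of the 58 rose (29.3%) and none fell, against 6.15% higher and 4.74% lower over all genes. Their median log2 fold change was 0.29, against 0.00 over all genes with an adjusted p. The lists were chosen with earlier results of these data known, so these counts are a description.

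Of the lysyl oxidases, which crosslink tropoelastin and collagen, 3 of 5 rose. Loxl1, the family member that Fbln5 binds, rose by 1.11 ± 0.18, Loxl3 by 0.97 ± 0.32 and Lox, the main crosslinking enzyme, by 0.81 ± 0.22 in log2 units of the authors' deposited table. Loxl2 and Loxl4, at -0.27 and -0.18 in log2 units of the authors' deposited table, were not called. Among 4 tested ADAMTS and ADAMTS-like genes, whose products bind or process microfibrils, Adamts10 rose by 1.09 ± 0.20 and Adamts6 by 0.95 ± 0.19 in log2 units of the authors' deposited table. Among 7 other tested genes with fibulin, Mfap or EMILIN names, Emilin1 was the only called gene, at 1.20 ± 0.24 in the authors' deposited table. Emilin1 codes for a glycoprotein at the border of elastin and microfibrils. Efemp1, another fibulin gene, was at 0.19 ± 0.27 (adjusted p = 0.728) in log2 units in the authors' deposited table. Mfap1a, Mfap1b, Mfap3 and Mfap3l, which entered the list by symbol alone, were not called. Mfap1a and Mfap1b are near-identical copies whose reads may have been split.

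The genes named for latent TGF-beta binding proteins, whose products share the fibrillin fold, held no called gene. The log2 fold changes of all 4 ran from -0.42 for Ltbp1 to 0.29 for Ltbp2 in the authors' deposited table. TGF-beta input genes with an adjusted p numbered 11, and 4 rose. The receptor gene Tgfbr2 rose by 1.39 ± 0.24, the ligand gene Gdf11 by 1.11 ± 0.27, the ligand gene Tgfb3 by 0.90 ± 0.21 and the coreceptor gene Tgfbr3 by 0.84 ± 0.24 in log2 units of the authors' deposited table. The genes of the intracellular mediators Smad2, Smad3 and Smad4 lay between -0.22 and 0.13 in the authors' deposited table and were not called.

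Among matrix partners of elastic fibres, 2 of 9 tested genes rose, the proteoglycan genes Vcan at 0.69 ± 0.23 and Hspg2 at 0.66 ± 0.17 in the authors' deposited table. Fn1, the fibronectin gene on whose fibrils microfibrils form, stood at 0.13 ± 0.25 (adjusted p = 0.807) in log2 units of the authors' deposited table. Among 12 tested receptor and processing genes 3 rose. Bmp1, whose protease activates lysyl oxidase, rose by 1.24 ± 0.23, the integrin gene Itgb5 by 0.90 ± 0.31 and Furin, the protease that trims profibrillin, by 0.69 ± 0.18 in log2 units of the authors' deposited table. Among 6 tested proteases that can cut elastin or its neighbours, Mmp9 rose by 1.11 ± 0.39 and Mmp14 by 0.78 ± 0.25 in log2 units of the authors' deposited table, and the macrophage elastase gene Mmp12 was listed at 0. The mean and fold of Mmp9 imply a normalized count of about 70.0 in 14-3-3ε clones against 32.5 in control clones, the second below 33.1, so like Mfap4 it reached the test through 14-3-3ε clones. Markers moved with these genes as well: of 8 fibroblast markers, Col1a1, Col1a2, Pdgfra and Pdgfrb rose and none fell, and none of the 3 tested smooth muscle markers was called. Among chondrocyte and bone markers Sox9 rose by 0.86 ± 0.27 in log2 units of the authors' deposited table, while Runx2 was not called, and Acan, Col2a1 and Bglap had low mean counts and no adjusted p. The part of these markers in the results was not tested.

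**Figure D3:**
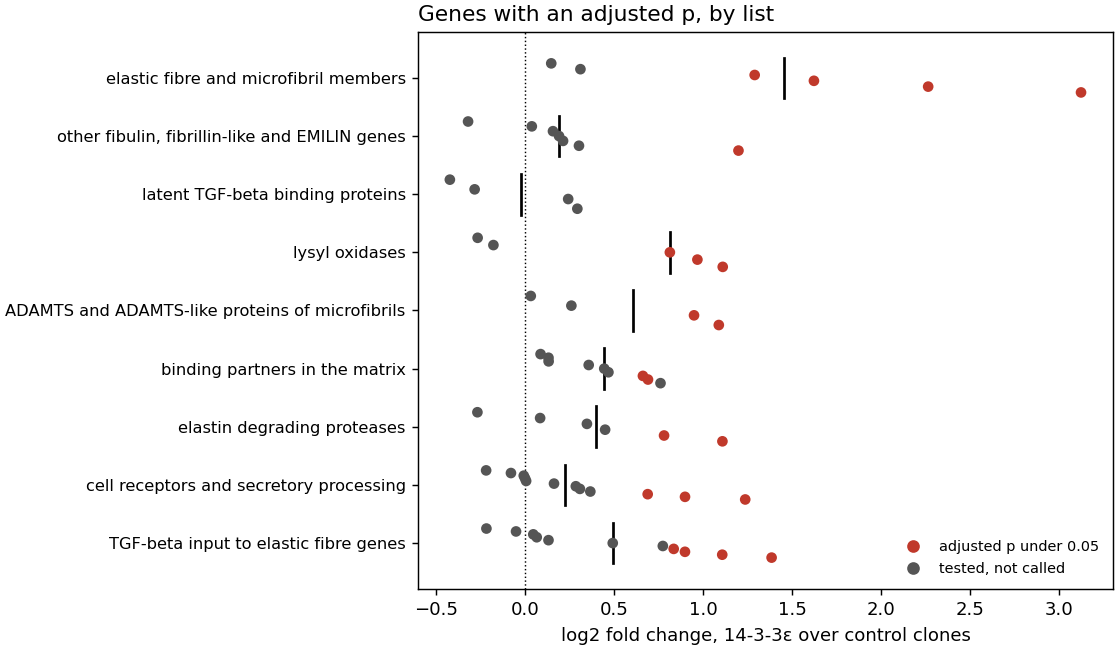
Log2 fold change, 14-3-3ε over control clones, of every gene with an adjusted p in each list, called (red) or not called (grey), with a black line at the median of the list. The lysyl oxidase list has its median at 0.81 and the latent TGF-beta binding proteins at -0.02.

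Genes next to the members on the chromosome were looked at as well. Of the 20 nearest protein-coding genes of the RNA-seq table, 1 on each side of each member, 11 had an adjusted p and none was called, against 10.9% called in either direction over all tested genes, a share at which a count of 0 among 11 says little. Of these 11, 4 flanked the 4 genes that rose. Mapk7, 104 bp from Mfap4, stood at -0.04 ± 0.23 and Trip11, next to Fbln5, at 0.26 ± 0.20 in log2 units of the authors' deposited table. Dut and Cep152, on either side of Fbn1, had -0.05 and -0.27 in log2 units of the authors' deposited table. Mus81 lies 41 bp beyond the high-coordinate end of Efemp2 and had a log2 fold change of -0.01 in the authors' deposited table.

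DNA methylation was examined in each gene span with 5000 bp on each side. Together the 10 genes had 1171 listed cytosines, of which 57 were called at the authors' q under 0.05 (4.87%), against 4.74% of all 2361680 listed cytosines. Of these, 36 were lower (3.07%) and 21 higher (1.79%) in 14-3-3ε clones, against backgrounds of 2.83% and 1.92%. Called cytosines were therefore about as common at these genes as elsewhere. How the comparison behind these q-values handled the 2 clones of a group is not stated in the labels or headers. If their reads were pooled, the q-values hold no spread between clones. At 56 of the 57 called cytosines the other strand of the CpG was listed too, and at 45 of the 56 it had the same sign. Only 5 CpGs were called on both strands. These shares were not worked out over all called cytosines.

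**Figure D4:**
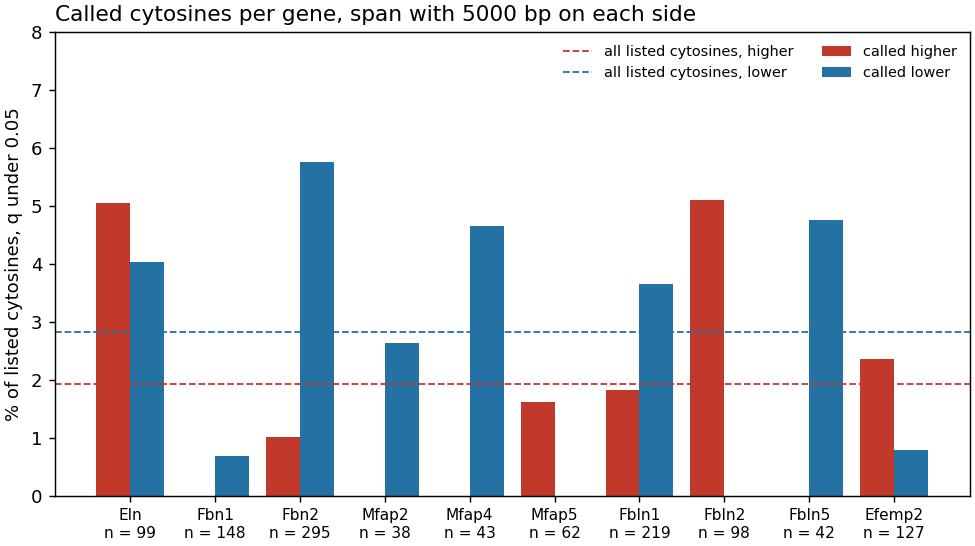
Percent of listed cytosines called higher (red bars) and lower (blue bars) in 14-3-3ε clones, per gene, with the number listed under its name and dashed lines for the shares over all listed cytosines. Fbn2 has the tallest bar for lower calls at 5.76%, and Fbln2 and Eln the tallest for higher calls at 5.10% and 5.05%.

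The starts of the genes were examined next. The sequences below are promoters of 4 members in which RRBS listed cytosines, shown because they let the CpGs behind the values be seen. They run from 250 bases before to 50 bases after an annotated start and come from RefSeq (build GRCm38.p6, the assembly of mm10), which held promoters for 6 of the 10 genes. Capitals mark listed cytosines of CpGs base by base: a capital C is listed on the strand shown, and a capital G stands for a listed cytosine opposite it. Fbln5 rose in RNA, Fbln2 and Efemp2 were not called, and Fbln1 stood near 0 reads.
Fbln5 chr12:101819070-101819369 (minus strand): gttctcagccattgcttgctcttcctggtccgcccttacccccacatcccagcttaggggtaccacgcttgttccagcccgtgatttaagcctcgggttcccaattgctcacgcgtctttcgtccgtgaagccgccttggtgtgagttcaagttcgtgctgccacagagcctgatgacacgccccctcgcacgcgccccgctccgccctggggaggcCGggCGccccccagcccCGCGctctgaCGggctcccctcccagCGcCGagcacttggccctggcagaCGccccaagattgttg
Fbln2 chr6:91212514-91212813 (plus strand): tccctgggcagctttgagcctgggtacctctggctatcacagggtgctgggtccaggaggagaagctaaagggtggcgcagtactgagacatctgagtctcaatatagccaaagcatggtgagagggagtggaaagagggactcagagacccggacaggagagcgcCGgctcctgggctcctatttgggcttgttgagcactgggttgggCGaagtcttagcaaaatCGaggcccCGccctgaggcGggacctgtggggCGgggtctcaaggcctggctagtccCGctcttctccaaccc
Efemp2 chr19:5474440-5474739 (plus strand): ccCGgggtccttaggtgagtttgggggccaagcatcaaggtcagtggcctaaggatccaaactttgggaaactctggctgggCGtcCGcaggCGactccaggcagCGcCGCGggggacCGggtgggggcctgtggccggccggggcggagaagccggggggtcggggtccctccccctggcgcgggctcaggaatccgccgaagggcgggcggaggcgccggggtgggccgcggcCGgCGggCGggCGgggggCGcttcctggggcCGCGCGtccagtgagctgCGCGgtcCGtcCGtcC
Fbln1 chr15:85205758-85206057 (plus strand): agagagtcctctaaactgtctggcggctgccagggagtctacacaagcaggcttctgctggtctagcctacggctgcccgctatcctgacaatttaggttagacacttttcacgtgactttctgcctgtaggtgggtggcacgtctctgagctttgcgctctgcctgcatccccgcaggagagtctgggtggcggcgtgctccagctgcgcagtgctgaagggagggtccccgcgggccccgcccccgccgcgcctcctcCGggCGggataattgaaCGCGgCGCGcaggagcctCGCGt

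All 16 listed cytosines of the Fbln5 promoter lay between -1.23 and 4.88 percentage points of difference in the authors' deposited table, and none was called. The 13 of Fbln2 lay between -1.55 and 4.24 points in the authors' deposited table, likewise with none called. The 16 of Fbln1 spread more widely, from -10.7 to 17.7 points in the authors' deposited table, and none was called. In the Efemp2 promoter 3 of 41 were called, all higher in 14-3-3ε clones. The largest, at base 106 of the sequence (position -145 from that start), was higher by 16.7 points with a q of 5.57e-05 in the authors' deposited table. The cytosine opposite it, at base 107, differed by 8.32 points and the one at base 88 by 8.71 points in the authors' deposited table. The promoters shown held 24, 10, 35 and 24 CpGs for Fbln5, Fbln2, Efemp2 and Fbln1. Those of Efemp2 and Fbln1 belong to starts further downstream, chosen because RRBS listed cytosines there. The most upstream entries of Efemp2 and Fbln1 held 16 and 12 CpGs, and the median over the most upstream entries of 27025 genes was 7.

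Short motifs were searched in the promoters, on both strands and with overlaps counted. GGGCGG, the GC box bound by Sp1 family factors, was found 2 times in the promoters of Fbln5, Fbln2 and Fbln1 shown above and 5 times in that of Efemp2. It was found 2 times in the most upstream entry of Efemp2 and 0 times in that of Fbln1, and 35.9% of 27025 genes have it in their most upstream entry. The TATA motif TATAAA, found in 14.2% of promoters, the AP-1 motif TGANTCA, found in 7.92%, and the Smad palindrome GTCTAGAC, found in 0.211%, had no match in any of the 11 promoter entries of the 6 genes.

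Windows of 1000 bp on each side of a start were called where at least 5 cytosines were listed, at least 3 of them called in 1 direction and none in the other, and calls made up 10% or more. None of the 10 members had a called window, although Eln had no listed cytosine to call. Of 14192 start windows counted among the 27025 genes with a promoter entry, 1.11% were called higher and 1.97% lower. At such shares, no call among 10 genes says little. Together the windows of the members held 439 listed cytosines, 4 called higher and 6 called lower. The share of called cytosines over the start windows of all genes was not worked out. For Fbn1 1 of 66 was called, a cytosine 667 bases past the start with a difference of -17.0 points (q = 0.0415) in the authors' deposited table. The start windows of Fbln5 and Fbln2 had 20 and 46 listed cytosines with none called, and that of Mfap2 had 12 with none called. For Fbln1 2 of 65 were called lower, with differences of -12.8 and -40.0 points in the authors' deposited table. Eln, Fbn2, Mfap4 and Mfap5 had no promoter entry, so the end of the gene with more listed cytosines was used, which need not be its start. Of 22156 such end windows counted among all genes, 1.16% were called higher and 2.09% lower. At that end of Mfap4 2 of 27 cytosines were called lower, with differences of -20.5 and -19.3 points in the authors' deposited table; at that of Mfap5 none of 14 was called; and neither end of Eln had a listed cytosine.

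The 4 genes that rose in RNA had 295 listed cytosines in all, with 1 called higher and 5 lower (2.03% called, against 4.74% of all listed cytosines). Fbn1 had the lowest share, 1 of 148. Mfap5 had a single called cytosine of 62, higher by 27.6 points inside the gene at 122522056 in the authors' deposited table. In Fbln5 the cytosine at 101815665, within the gene and 3454 bases past its start, had a difference of -40.1 points (q = 0.00154) in the authors' deposited table. Efemp2 and Fbln2, tested and not called in RNA, had 9 called of 225 (4.0%), and the 4 genes with low RNA had 42 of 651 (6.45%). These shares describe few genes, and cytosines of a gene are not independent, so no test was made between them.

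Fbn2 had the most calls. Of its 295 listed cytosines 17 were lower and 3 higher, 5.76% lower against 2.83% over all listed cytosines. The 17 lower calls fell at 16 CpGs spread along the gene and just beyond it, from -5.26 to -48.4 points in the authors' deposited table, the largest at 58102415. They formed 2 called 1 kb windows, 58024001 to 58025000 with 3 of 22 cytosines lower and 58053001 to 58054000 with 3 of 18 lower, in a gene whose RNA was listed near 0. Fbln2 went the other way, with 5 of 98 cytosines higher and none lower. The span and its surroundings held 2 called 1 kb windows, 91218001 to 91219000 inside the gene with 3 of 10 higher and a mean of 10.7 points, and 91277001 to 91278000 beyond the gene with 3 of 6 higher and a mean of 9.09 points over the authors' deposited table. Of the last 3 calls, 1 lay past the 5000 bp flank and is not among the 5, which by themselves would not have made that window. At 91218501 and the opposite strand the differences were 35.1 and 31.1 points in the authors' deposited table. Of 80 windows at the 10 genes with at least 5 listed cytosines these 4 were called, against 1.07% higher and 2.38% lower over all such windows.

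Eln and Fbln1 had calls in both directions. Eln had 5 higher and 4 lower of 99, all inside the gene, and its largest was a difference of -24.5 points at 134732544 in the authors' deposited table. Another cytosine only 14 bp away was called higher by 12.5 points in the authors' deposited table. Fbln1 had 4 higher and 8 lower of 219, from -40.0 to 45.5 points in the authors' deposited table. In Mfap2, 1 of 38 was called, with a difference of -11.9 points outside the gene at 141008619 in the authors' deposited table. Efemp2 had 3 higher calls, those of its promoter, and 1 lower call of 127.

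**Figure D5:**
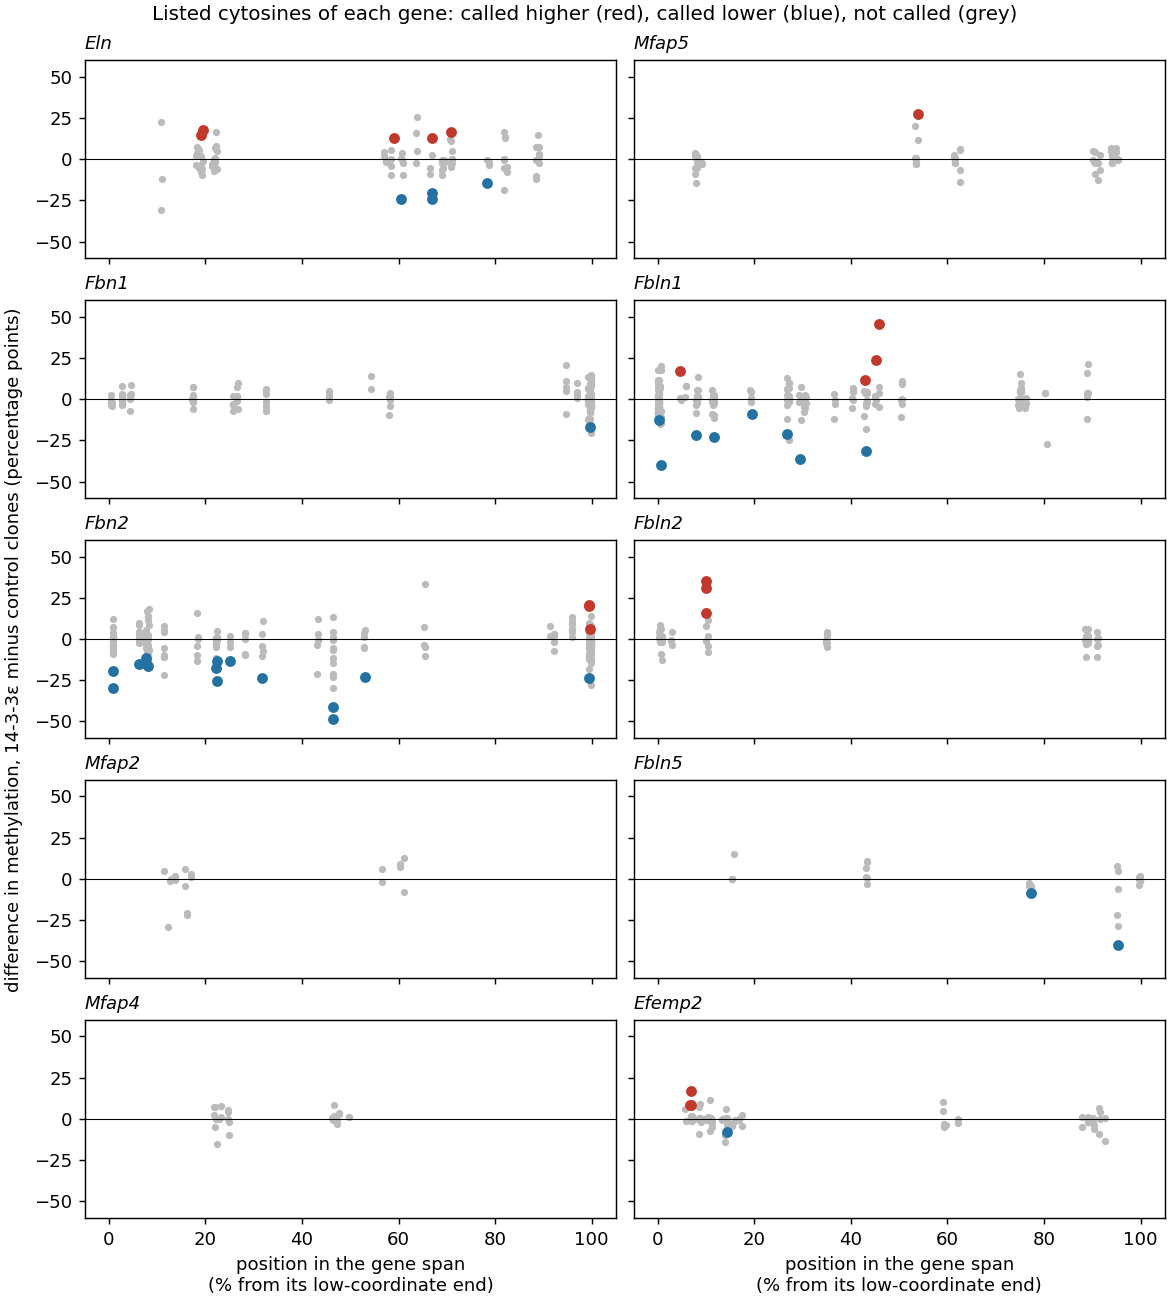
Difference in methylation, 14-3-3ε minus control clones in percentage points, at each listed cytosine inside the span of each gene; position is the percent of the span from its low-coordinate end. Fbn1 and Mfap5 have 1 called cytosine each, while the calls of Fbn2 are mostly lower and spread along the gene.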

How the data were processed

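RNA-seq and RRBS were run on the same clones. Trim Galore, Bismark, Bowtie2, methylKit, TopHat2, HTSeq and DESeq2 with build mm10 are named in the submitters' processing notes, without version or role, and the RNA kit is a directional one per the labels' protocols. In the RNA-seq table the authors deposited, per the file headers, a mean signal per gene (read as DESeq2's mean normalized count), a log2 fold change and its standard error on the log2 scale, a statistic (a score equal to fold change over standard error), a p-value and an adjusted p-value. Levels are not divided by length, so genes were not ranked by level; the marker check and the words low count rest on the undivided counts. In the RRBS table the authors deposited a difference in percentage points (a score here) with p-value and q-value per cytosine, per the file headers; 253 duplicate lines were removed. Coverage and counting by strand are not stated there.

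Genes were called at the deposited adjusted p under 0.05 and cytosines at q under 0.05. Benjamini-Hochberg adjustment over the tested genes returned the deposited adjusted p to within 2.18e-15. Intervals are the estimate with 1.96 standard errors on each side and cover what that error covers. The planned count models could not be used, since no counts per clone are in these tables. Where several starts were annotated the most upstream was used. The table of gene spans gives no exons, so positions are relative to whole genes. The window rule was run on simulated windows built either to meet it or to hold no call, which checks the code and not its error rate. Python 3.11.15, numpy 2.4.6, pandas 2.3.3 and matplotlib 3.10.9 were used. The members and lists were chosen with earlier results of these data known. All members are named; of each other list, the 2 highest and 2 lowest called genes, or every called gene where there were 3 or fewer, and others as points of comparison chosen after their values were seen. Each member's largest called cytosine and each called 1 kb window at a member are named.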

Additional observations from a re-analysis of the deposited data

How the results depend on the processing

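The 4 members called higher stayed 4 at adjusted p thresholds of 0.01 and 0.10, with adjustment over every gene with a p-value and with a 2-fold minimum, and were 3 under Bonferroni, where Fbln5 at 1.29 was not called (p 0.148). No member was called lower under any of these settings. Among companion genes the 17 rises stayed 17 at an adjusted p threshold of 0.10 and were 12 at 0.01. They were 14 with adjustment over every gene with a p-value, 6 under Bonferroni and 7 with a 2-fold minimum. Shares over all genes were not worked out at these changed settings. At an adjusted p under 0.05 those shares were 6.15% higher and 4.74% lower. The median log2 fold change of members was 1.46 over the 6 with an adjusted p, which leaves out the 4 of low count. Lower and higher member cytosines numbered 18 and 9 at q under 0.01, and 9 and 4 with a difference of at least 25 points as well. Shares over all listed cytosines were not worked out at these 2 settings. At q under 0.05 those shares were 2.83% lower and 1.92% higher. The mean difference over the members' start windows, -0.717 points, was 0 when the median was taken. No start window was called under any window size, threshold or other start tried, the last of these chosen after seeing the data. No paired analysis was possible because the tables hold no value per clone, and for the same reason no clone could be left out. Low count limits Eln, Fbn2, Mfap2 and Fbln1, and unknown coverage limits the methylation values.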
